A study of Mus musculus with 4 samples.

Results

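Regions of differential chromatin accessibility were collected for 8 genes of the tumour necrosis factor (TNF) receptor superfamily and its ligands: the receptor genes Tnfrsf4, Tnfrsf18, Tnfrsf9, Tnfrsf1b, Tnfrsf8, Cd27 and Tnfrsf25, and the ligand gene Tnfsf8. A region belonged to a gene when its midpoint lay inside the gene or, outside all protein-coding genes, when an end of that gene was the nearest within 100 kb. This gave 60 merged regions (107 deposited rows) out of 52537 merged regions (92372 rows) in all, where rows of the tables that overlapped by at least 1 bp were merged.

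Accessibility was measured by ATAC-seq, in which a transposase cuts and tags open DNA, in 4 bulk populations of CD3+ CD4+ T helper cells from mice given house dust mite (HDM), an allergen that serves to model asthma. Lung with airways gave the Th2 cells (CD44+ ST2+ CD30L+), the regulatory T cells (Treg, CD25hi CD30L-) and the other effector cells, which are non-Th2 memory cells sorted as CD44+ ST2- CD30L+. Naive cells (CD44lo CD62Lhi) were taken from the mediastinal lymph node, per the protocol, while their source label names lung and airways. Each comparison with naive cells is therefore also one between tissues, and the 2 cannot be told apart. Per the labels, 3 biological replicates were sorted for each population and 1000 cells purified per subset. The titles give day 15, although the descriptions of the naive and other effector samples carry day 10. Were those descriptions right, comparisons of naive or other effector cells with Th2 or Treg cells would also be between days. Day and population could then not be told apart. For mouse strain, age and sex the sources used here give nothing.

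The data were 6 deposited tables, 1 for each pair of populations, holding the position of each differential region and its log2 fold, which is the authors' own value wherever a fold is given below. Replicate values, read counts and p-values were not analysed here, so depth is unknown, no fold carries an error, and no test was made. A region counts as listed when it stands in a table, and a region missing from a table is not shown to be equal in the 2 populations. The smallest absolute fold in a table was between 3.41 and 3.95. Other effector cells were the lower population in every row of their 3 tables. In bulk cells, a larger share of cells with an open site and a more open site in each cell cannot be told apart.

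TNF receptors are surface proteins that bind trimeric ligands of the TNF family and pass the signal through TRAF adapters to NF-kB, or, in members with a death domain, also toward cell death. On T cells, OX40 (Tnfrsf4), GITR (Tnfrsf18), 4-1BB (Tnfrsf9), TNFR2 (Tnfrsf1b), CD30 (Tnfrsf8), CD27 (Cd27) and DR3 (Tnfrsf25) act as costimulatory receptors, and several of them are known for high levels on regulatory T cells. Tnfsf8 encodes CD30L, the ligand of CD30. CD30L was also a sort marker here: Th2 and other effector cells were sorted as positive and Treg cells as negative for it, so a difference at Tnfsf8 between Treg cells and those populations is no finding. Differences from naive cells at Tnfsf8 cannot be told apart from the same sort.

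Of the 8 genes, 7 lie on chromosome 4 and Cd27 lies on chromosome 6. Tnfrsf8 and Tnfrsf1b are neighbours 20262 bp apart, as are Tnfrsf4 and Tnfrsf18 at 9709 bp, so a region between such a pair was given to the nearer gene only. A start site in the RefSeq table lay inside a listed region for 6 of the 8 genes, all of them receptors: Tnfrsf8, Tnfrsf1b, Tnfrsf18, Cd27, Tnfrsf25 and Tnfrsf9, the last at its second start only. All 6 were in regions higher in Treg cells than other effector cells, a direction that held a start of 33.9% of 17492 protein-coding genes. No start of Tnfrsf4 or Tnfsf8 lay in a listed region.

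Up to 250 of the bases that a listed region covered before a start of Tnfrsf8, Tnfrsf1b, Tnfrsf18, Cd27 and Tnfrsf9 are shown. They were chosen because accessibility differed there. Those of Tnfrsf25 are not printed: the region covers 26 bases before its first start, and the bases before its second start lie downstream of the first. They are from RefSeq, build GRCm38.p6, 5′ to 3′ along the gene, ending at the base before the start site, and capitals mark matches to the motifs searched. They lie at chr4:145315165-145315414 on the minus strand for Tnfrsf8, chr4:145246871-145247120 on the minus strand for Tnfrsf1b, chr4:156026072-156026321 on the plus strand for Tnfrsf18, chr6:125237028-125237277 on the minus strand for Cd27, and chr4:150927821-150927998 on the plus strand for the second start of Tnfrsf9.
Tnfrsf8: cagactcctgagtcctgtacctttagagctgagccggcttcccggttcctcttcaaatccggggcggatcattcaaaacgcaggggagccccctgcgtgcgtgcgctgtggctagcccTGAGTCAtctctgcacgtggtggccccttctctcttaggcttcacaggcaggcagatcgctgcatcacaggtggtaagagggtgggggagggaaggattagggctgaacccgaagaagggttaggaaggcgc
Tnfrsf1b: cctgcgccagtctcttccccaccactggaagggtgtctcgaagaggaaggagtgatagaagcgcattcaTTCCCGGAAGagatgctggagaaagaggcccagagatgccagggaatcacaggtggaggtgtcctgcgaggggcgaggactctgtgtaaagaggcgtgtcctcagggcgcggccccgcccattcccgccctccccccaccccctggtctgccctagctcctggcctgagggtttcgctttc
Tnfrsf18: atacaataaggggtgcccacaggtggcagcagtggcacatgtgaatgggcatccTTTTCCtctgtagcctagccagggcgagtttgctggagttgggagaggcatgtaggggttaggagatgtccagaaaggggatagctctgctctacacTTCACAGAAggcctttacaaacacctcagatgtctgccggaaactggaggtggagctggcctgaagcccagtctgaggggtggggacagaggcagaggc
Cd27: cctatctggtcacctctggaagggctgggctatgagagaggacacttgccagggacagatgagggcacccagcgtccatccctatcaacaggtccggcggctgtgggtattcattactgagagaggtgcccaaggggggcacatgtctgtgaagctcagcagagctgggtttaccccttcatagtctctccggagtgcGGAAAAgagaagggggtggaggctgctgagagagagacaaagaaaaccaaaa
Tnfrsf9: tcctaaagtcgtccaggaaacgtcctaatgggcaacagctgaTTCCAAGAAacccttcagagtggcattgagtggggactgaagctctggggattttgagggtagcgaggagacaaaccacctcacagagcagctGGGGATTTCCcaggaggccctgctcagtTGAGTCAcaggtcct

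The promoter stretches were searched on both strands for 7 short motifs that T cell transcription factors are known to bind. The NF-kB motif was GGG and TTCC with 3 bases of any kind between them, and the Tnfrsf9 stretch of 178 bases held a match to it beginning at base -43 before the start. The AP-1 motif, TGANTCA, was matched at -15 in the same stretch, and the STAT motif, with letters TTCNNNGAA, at -136. Over the same length, 3.69%, 4.43% and 4.49% of 21263 starts of protein-coding genes held these motifs. Tnfrsf8 held 1 AP-1 match, at -132, against 6.13% of starts over 250 bases. Tnfrsf1b held a STAT match at -181, against 6.58% of starts, and it shares bases with a match at -178 to the ETS motif, CCGGAAG, which stood before 8.98%. Tnfrsf18 held a STAT match at -99 and, at -196, a match to the NFAT motif, whose letters GGAAAA were present before 19.8% of starts. Cd27 held an NFAT match at -52 and none of the others. The 250 bases before the second start of Tnfrsf25 held a STAT match at -16. The RUNX motif, TGTGGT, was in none of the 5 stretches printed, nor in that of Tnfrsf25, against 12.4% of starts over 250 bases and 8.74% over 178. The same was true of the GATA motif, with the letters AGATAA, against 8.81% and 5.85% of starts. A match is a stretch of letters, and binding was not measured.

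Most receptor regions were listed with Treg cells as the higher population, mainly over other effector cells. Other effector cells were the lower population in every row of their tables, so no region was listed the other way. Of the 53 receptor regions, 46 had Treg cells as a higher population in at least 1 table: 37 Treg cells alone, 6 Treg and Th2 cells, and 3 Treg and naive cells. Of those 37, 24 were listed over other effector cells and over no other population, which leaves their order against naive and Th2 cells unknown. The other 13 were listed over naive or Th2 cells. This split was not computed over all regions, so whether it is ordinary is unknown. Of the receptor regions without Treg cells as a higher population, 4 were higher in Th2 cells alone and 3 in naive cells alone. Of the 7 regions of Tnfsf8, 4 were higher in naive cells alone, 3 in Th2 cells alone and 0 in Treg cells, which were sorted as negative for its product. Over all 52537 regions, Treg cells were the sole higher population at 19.4%, Th2 cells at 27.6% and naive cells at 22.7%. Treg cells shared the higher place with Th2 cells at 19.3% of all regions, with naive cells at 4.55% and with both at 3.54%. The 6 of 53 receptor regions higher in Treg and Th2 cells were thus below the share of all regions. The 3 higher in Treg and naive cells were near it.

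By table, 45 of the 60 regions were higher in Treg cells than other effector cells, which is 75.0% against 46.7% of all merged regions. Of the 35 regions inside a gene, 26 were. All 45 belonged to receptors, 84.9% of their 53. Treg cells were higher than naive cells at 12 regions (20% of the 60, background 6.64%) and higher than Th2 cells at 10 (16.7%, background 3.34%), again all at receptors. The shares in the directions led by Treg cells were thus each above the background. Tnfrsf8 alone held 8 of the 12 and 5 of the 10, while Tnfrsf4 and Tnfrsf25 held 0 in either direction. Th2 cells were higher than other effector cells at 13 regions (21.7%), below the background of 53.2%. Th2 cells were higher than naive cells at 7 (11.7%, background 9.67%), near the share of all regions. They were higher than Treg cells at 5 (8.33%, background 6.72%), but 3 of these were Tnfsf8 regions, where the CD30L sort makes this no finding. At the 53 receptor regions Th2 cells were higher than Treg cells at 2 (3.77%), below the background. Naive cells were higher than other effector cells at 10 regions (16.7%, background 33.7%), than Th2 cells at 3 (5.0%, background 9.21%) and than Treg cells at 2 (3.33%, background 5.76%). The members were chosen with earlier results of these data known, so these shares are a description. Each region entered the series by being listed in at least 1 table, so a high share in some directions leaves less for the others.

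The sizes of the folds were also given by the authors' deposited tables. For Treg over other effector cells the 45 folds had a median of 6.12, between 4.04 and 8.67, against a median of 5.38 over all rows of that direction. The medians were 6.44 against 5.72 for Treg over naive and 6.86 against 5.57 for Treg over Th2 cells. For Th2 over other effector cells it was 5.82 against 5.40, and for naive over other effector cells 5.30 against 5.41. Larger medians were not particular to Treg cells: naive over Th2 cells had 6.65 against 5.28, on 3 regions. Th2 over naive cells had 5.96 against 5.59 and Th2 over Treg cells 5.79 against 5.50. Naive over Treg cells had 4.78 against 5.32, on 2 regions.

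**Figure D1:**
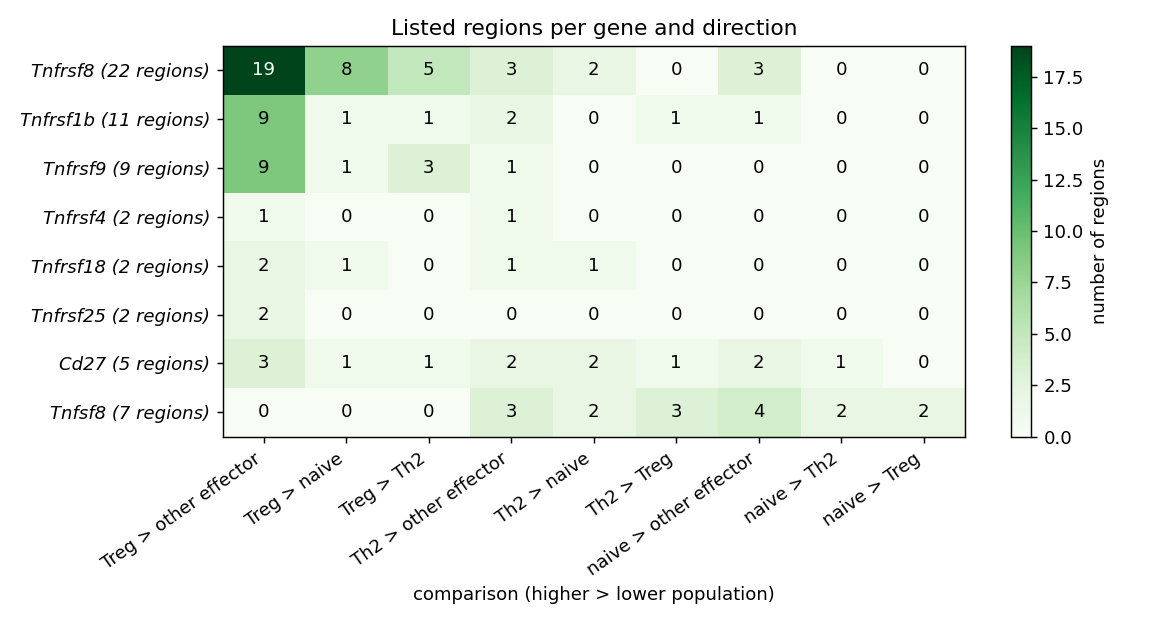
Number of merged regions of each gene (rows, with the total per gene in parentheses) listed in each direction (columns, higher > lower population); darker green is a higher number. The first column holds 19 regions of Tnfrsf8 and 9 each of Tnfrsf1b and Tnfrsf9. The Tnfsf8 row is shaped in part by the sort, since Treg cells were taken as negative for CD30L.

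**Figure D2:**
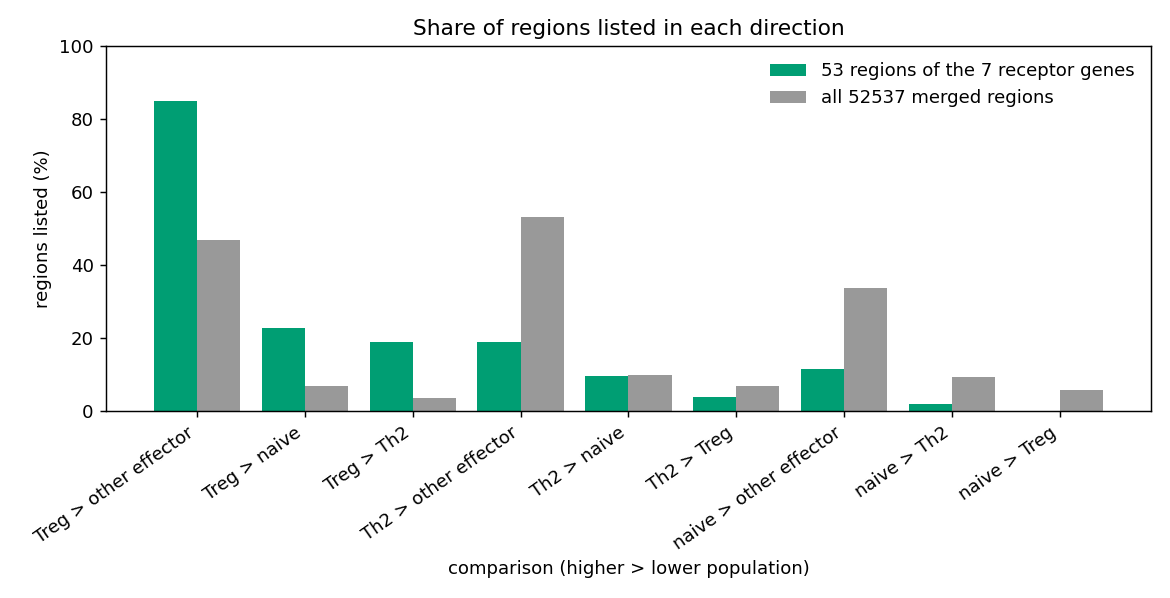
Percent of regions listed in each direction (x axis, higher > lower population) for the 53 regions of the 7 receptor genes (green bars) and for all 52537 merged regions (grey bars). The green bar is taller in the 3 directions where Treg cells are higher (84.9%, 22.6% and 18.9%) and shorter in the other directions, with 9.43% against 9.67% for Th2 over naive cells.

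The 60 regions were of ordinary size and placement. Their length ran from 150 to 1358 bp with a median of 477.5 bp, against a median of 497 bp over all regions, and 58.3% lay inside a gene, against 60.2% of all. The farthest region outside a gene was 46041 bp from its gene. By the number of tables, 29 regions stood in 1 table, 19 in 2, 8 in 3 and 4 in 4. Other effector cells were the sole lower population at 32 of the 60. Neither this count nor the split by number of tables was computed over all regions. Whether they are ordinary is therefore unknown.

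Tnfrsf8, which encodes CD30, had the most regions of the 8 genes: 22, from 46041 bp before its start to 3235 bp beyond its far end, 12 of them inside the gene. Treg cells were higher than other effector cells at 19, with folds from 4.28 to 7.38, higher than naive cells at 8 and higher than Th2 cells at 5. Among all protein-coding genes ranked by number of regions, Tnfrsf8 was the 18th for Treg over other effector, the 14th for Treg over naive and the 6th for Treg over Th2 cells, ties sharing the better rank. It had 0 regions higher in naive or Th2 than in Treg cells. The ranks here and that of Tnfrsf9 below take no account of gene length or of the space around a gene. Tnfrsf8 is 48033 bp long, with a gap of 97068 bp to Gm42346.

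The start of Tnfrsf8 lay in a region at chr4:145314975-145315434 that was higher in Treg cells than in each of the other populations. The folds were 7.55 over naive, 7.38 over other effector and 7.56 over Th2 cells in the authors' deposited tables. This is the start whose upstream bases are printed above, and its 3 folds lie within 0.18 of each other. The other regions with folds for Treg over Th2 cells lay 26.9 kb before the start (7.25), 4.37 kb before it (6.81), and 8.50 kb (6.01) and 36.73 kb (5.0) after it.

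The remaining regions of Tnfrsf8 were not all of this kind. The one near the far end of the gene, 47.31 kb after the start at chr4:145267644-145268064, was higher in Th2 cells by 8.02 over naive and 7.85 over other effector cells. In the same region Treg cells were higher by 4.62 and 4.44, so Th2 cells stood above Treg cells by 3.40 by subtraction, a difference that the Treg versus Th2 table does not list. At 31.43 kb, both Treg (7.82) and Th2 cells (5.56) were higher than naive cells. Th2 cells were also higher there than other effector cells (5.87, on a shorter interval), while Treg over other effector cells was not listed. A region at 14.85 kb was higher in Treg (6.74) and Th2 (5.99) than in other effector cells. Naive cells were higher than other effector cells at 3 regions, by 3.96 at 41.89 kb and 5.13 at 48.53 kb after the start, and 5.32 at 38.76 kb before it, the last one also higher in Treg cells (5.92).

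Tnfrsf1b, which encodes TNFR2, lies just beyond Tnfrsf8 and had 11 regions, 7 inside the gene. Treg cells were higher than other effector cells at 9, with folds from 4.10 to 8.41. The highest, at chr4:145221243-145222529 inside the gene, was also the one Tnfrsf1b region higher in Treg cells than naive cells (8.58). The start region, chr4:145246533-145247169, was listed only for Treg over other effector cells (6.47). A region 3.31 kb before the start was higher in Treg cells than Th2 cells (7.04) and than in other effector cells (7.24).

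A pair of Tnfrsf1b regions were listed for Th2 and not for Treg cells. A 150 bp region at chr4:145233824-145233973 was higher in Th2 cells by 6.19 over other effector and 6.20 over Treg cells. A region 0.63 kb after the start was higher in Th2 cells than other effector cells (5.49). The widest region of the 60, 1358 bp at chr4:145228829-145230186, was higher than in other effector cells in both naive (8.02) and Treg cells (6.0).

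**Figure D3:**
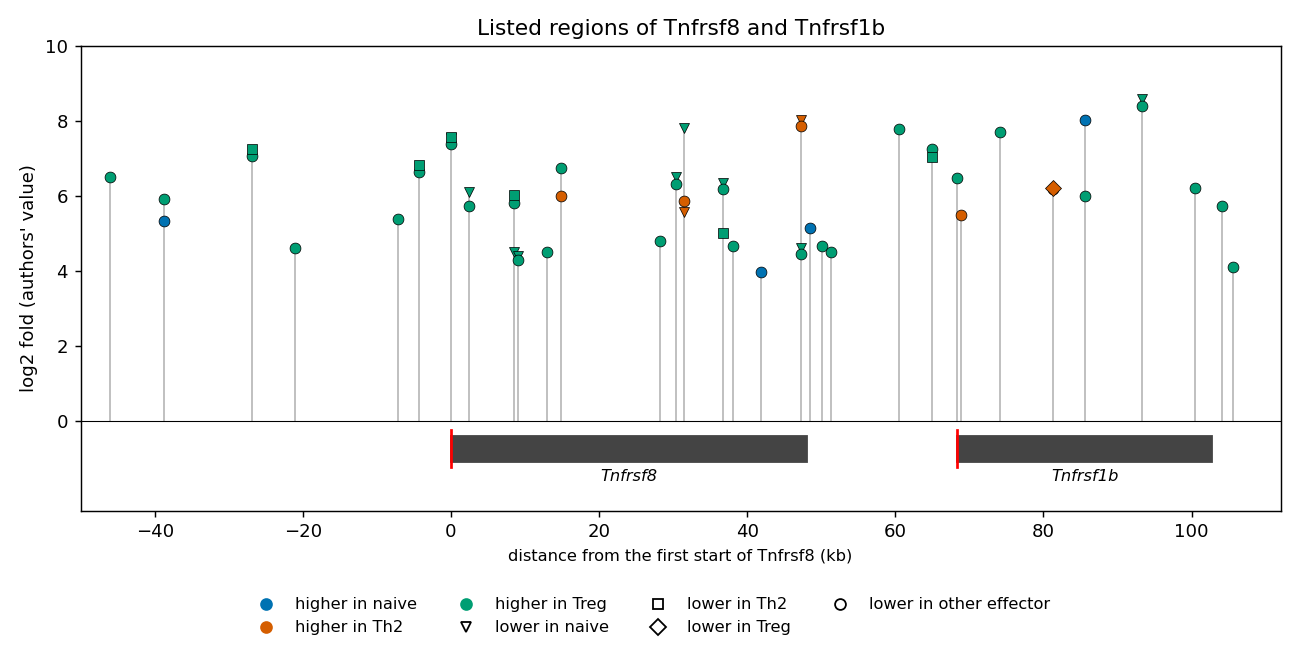
Log2 folds of the authors (y axis) at each listed region of Tnfrsf8 and Tnfrsf1b against the distance from the Tnfrsf8 start in kb (x axis, in the direction of transcription); colour gives the higher and marker shape the lower population, dark bars the genes, red lines their first starts and grey lines the position of each region. Treg folds (green) run along both genes, and a Th2 fold of 8.02 (orange) stands at the far end of Tnfrsf8.

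Tnfrsf9, which encodes the costimulatory receptor 4-1BB, had 9 regions, 7 inside the gene, and all 9 were higher in Treg cells than other effector cells. The folds ran from 4.04 to 8.67. The first region, 4.64 kb after the first start at chr4:150924257-150925341, had the fold of 8.67, the largest of the 45, and was also higher in Treg cells than naive cells (6.66, on a slightly different interval). Th2 cells were higher there too, by 4.53 over other effector cells, which puts Treg above Th2 cells by 4.14 on the same interval, again without a row in the Treg versus Th2 table.

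Treg cells were higher than Th2 cells at 3 regions inside Tnfrsf9, at 7.24 kb (6.30), 17.98 kb (6.91) and 20.02 kb (6.93), which placed the gene at rank 39 in that direction. The region on the second start, chr4:150927821-150928172, had a fold of 7.55 over other effector cells and stood in no other table. It is the one with the NF-kB and AP-1 letters printed above. The region farthest out, 18962 bp beyond the gene, had 8.30.

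Tnfrsf4 and Tnfrsf18, which encode OX40 and GITR, had 2 regions each. The Tnfrsf4 regions were small and low: 1 of 262 bp higher in Th2 cells (4.36) and 1 of 251 bp higher in Treg cells (4.42), each over other effector cells only and both inside the gene. The start of Tnfrsf18, at chr4:156026047-156026574, was higher in Treg cells than other effector cells (6.79). The other region, chr4:156030647-156031141, lay 2000 bp beyond the far end of Tnfrsf18, toward Ttll10. It was higher in Treg cells by 7.83 over naive and 7.66 over other effector cells, and in Th2 cells by 6.11 and 5.94. Subtraction gives Treg above Th2 cells by 1.72, and the Treg versus Th2 table does not list it.

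**Figure D4:**
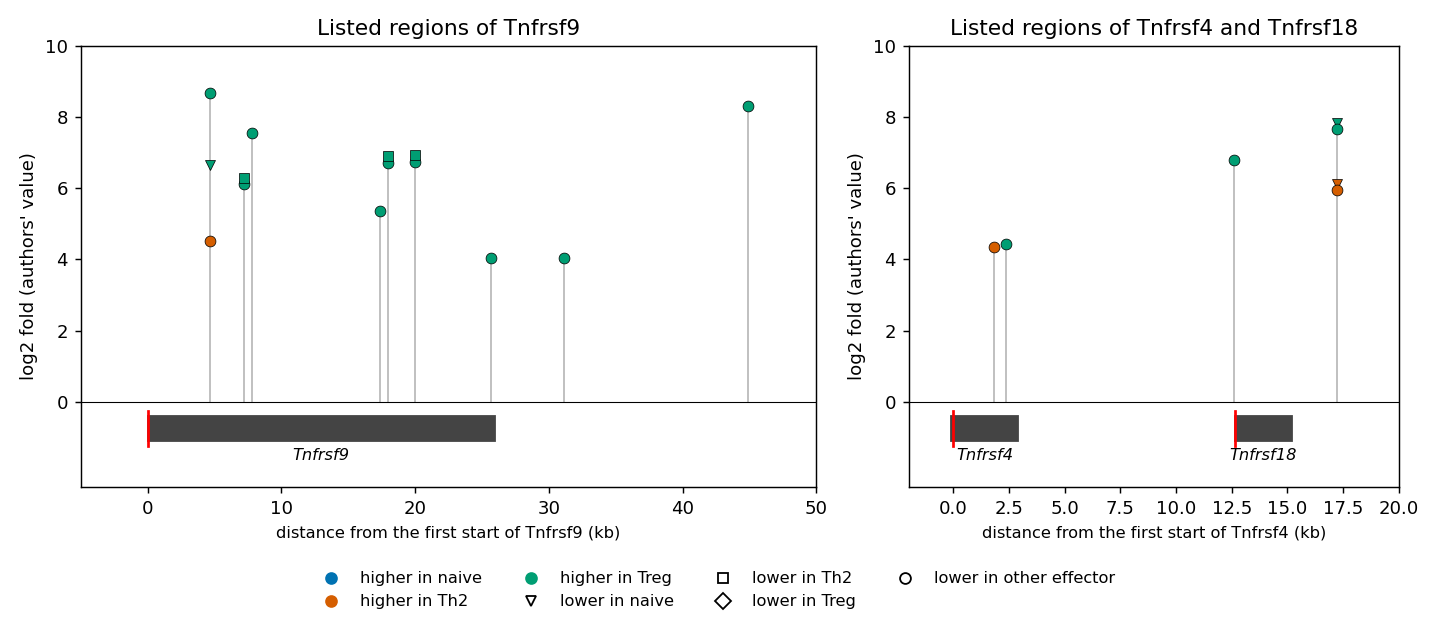
Log2 folds of the authors (y axis) at each listed region of Tnfrsf9 (left) and of Tnfrsf4 and Tnfrsf18 (right) against the distance from the first start of Tnfrsf9 or Tnfrsf4 in kb; colours, shapes, bars and red lines mark populations, genes and starts as in the legend and the other maps. Each Tnfrsf9 region carries a green Treg fold, up to 8.67, and the region beyond Tnfrsf18 carries both Treg and Th2 folds.

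Tnfrsf25, which encodes DR3, the receptor of TL1A with a death domain, had 2 regions, and both were listed for Treg over other effector cells and in no other table. The one over both of its start sites, chr4:152115908-152116495, had a fold of 6.94, and a 150 bp region 1.81 kb after the first start had 4.48. Plekhg5 and Espn lie 124 and 212 bp from Tnfrsf25, so only regions close to the gene could be assigned to it.

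Cd27 encodes CD27, a receptor of resting T cells that binds CD70, and its 5 regions were mixed. The start region, chr6:125236869-125237797, was higher in naive cells by 7.87 over other effector and 8.05 over Th2 cells. On a shorter interval of the same region, chr6:125236869-125237267, which still holds the start, Treg cells were higher by 5.59 over other effector and 5.77 over Th2 cells. Naive and Treg cells were thus the higher populations at the Cd27 start and Th2 and other effector cells the lower ones. The first bases of the Cd27 stretch printed above lie outside the shorter interval. A second naive region 4.65 kb before the start had 7.64 over other effector cells.

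Farther from Cd27 the order was different. At 19.75 kb before the start, Th2 cells were higher than each other population, by 5.96 over naive, 5.78 over other effector and 5.79 over Treg cells. At 15.90 kb, Treg cells were higher by 6.38 over naive and 6.12 over other effector cells, and Th2 cells by 4.94 and 4.44. A region at 16.24 kb was higher in Treg cells than other effector cells (5.06). These 3 regions lie in the space between Cd27 and Tuba3a, a gap of 41134 bp.

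Tnfsf8 had 7 regions, 4 of them inside the gene. In the direction of transcription the higher populations were Th2, naive at 3 regions, Th2, naive and Th2. Naive cells were higher than other effector cells at 4 regions, by 6.46, 5.29, 5.15 and 4.26. At 2 of these, 11.92 kb after and 8.0 kb before the start, naive cells were also above Th2 cells (6.65 and 5.34). At the other 2, at 1.41 kb after and 24.95 kb before the start, they were above Treg cells (5.29 and 4.27). Th2 cells were higher than other effector cells at 3 regions, by 5.23 to 6.17, and above naive cells at 2 of them (5.40 and 6.34). Since Treg and Th2 cells were sorted by CD30L, their folds against naive cells here cannot be told apart from the sort.

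Those 3 regions were higher in Th2 cells than Treg cells by 6.18 at chr4:63905978-63906527, 5.23 at chr4:63853747-63854198 and 4.94 at chr4:63847259-63847499. Since Treg cells were sorted as negative for CD30L, the Treg side of these folds is no finding. Other effector cells were sorted as positive for CD30L and were a lower population at all 7 regions. The nearest genes, Tnfsf15 and Tnc, are 86143 and 98277 bp away.

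**Figure D5:**
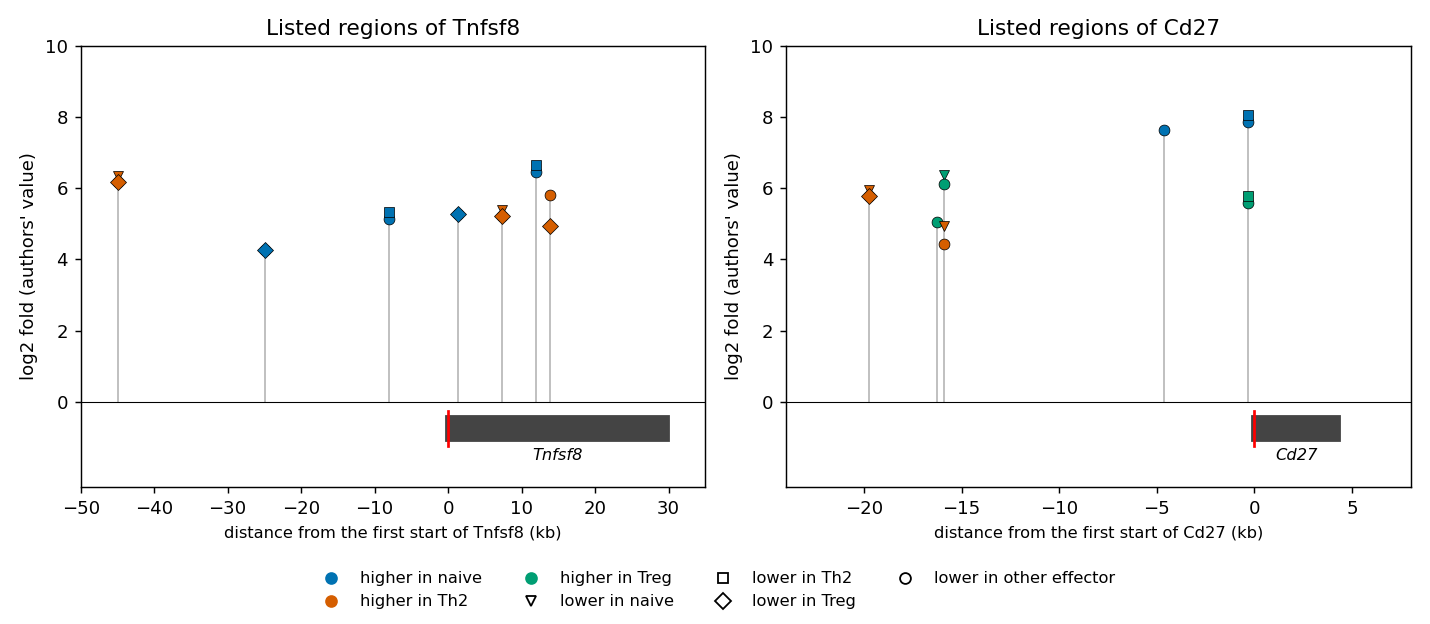
Log2 folds of the authors (y axis) at each listed region of Tnfsf8 (left) and Cd27 (right) against the distance from the gene's start in kb; colours, shapes, bars and red lines mark populations, genes and starts as in the legend and the other maps. Tnfsf8 shows naive (blue) and Th2 (orange) folds, and the Cd27 start shows naive folds of 7.87 and 8.05 above Treg folds of 5.59 and 5.77.

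Folds of the same population over 2 others could be subtracted to give the difference between those 2. At 4 regions of the series listed in all 3 tables of 3 populations the folds added up with a residual of 0.0. Where 4 tables gave the same difference in 2 ways, the ways agreed within 0.01 at 91.5% of 1076 regions (naive minus other effector cells), with a largest gap of 0.33. Cd27 at 15.90 kb before the start was one of the others, with a gap of 0.24.

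These subtractions gave repeated values. Among 2761 regions where Treg cells were listed over both naive and other effector cells, naive minus other effector was within 0.01 of -0.17 at 87.3%. Among 1759 where they were listed over other effector and Th2 cells, other effector minus Th2 was within 0.01 of 0.18 at 75.4%. Of 37 such differences at 24 regions of the 8 genes, 30 were at the value that recurs for their pair. At the Tnfrsf8 start, for example, naive, other effector and Th2 cells differed only by these recurring amounts (-0.17, 0.18 and 0.01). At such regions the folds rank the lower populations by no more than this fixed amount. Whether it stands for the absence of reads was not tested.

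The other 7 differences, at 5 regions of the 8 genes, show a ranking below the top population. At 8.50 kb after the Tnfrsf8 start, naive cells were above other effector cells by 1.32 and above Th2 cells by 1.51, below Treg cells. At 36.73 kb, Th2 cells were above other effector cells by 1.17 and above naive cells by 1.34. At the Tnfrsf1b region 3.31 kb before its start, Th2 cells were above other effector cells by 0.20. The others were 0.50 for other effector over naive cells at Cd27, with the gap of 0.24 between its 2 ways, and 0.88 for Treg over other effector cells at Tnfsf8, where Treg cells were sorted without CD30L. These differences are subtractions of deposited folds and have no error.

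The other genes of the pathway were counted over lists of receptors, ligands, and adapters with NF-kB genes. Of 21 other receptor genes, 20 had a region, with a median of 2 per gene, against a median of 6 for the 8 genes and 1 for all 21900 protein-coding genes. Genes with more regions can be listed in more directions, so the shares of genes below move with these medians. Of all 21900 genes only 14080 had a region, and the genes without any lower the shares given for all genes. Shares of regions were not computed for the lists, so a higher share of genes is not read as an excess. Regions with Treg above other effector cells were present at 14 of the 21 (66.7%, all genes 48.7%) and at 7 of the 8 genes. For Treg over naive cells it was 2 of the 21 (9.52%, all genes 9.64%) and 5 of the 8, and for Treg over Th2 cells 3 of the 21 (14.3%, all genes 5.66%) and 4 of the 8. Of all merged regions, 46.7% were higher in Treg, 33.7% in naive and 53.2% in Th2 cells than other effector cells. Those higher in Th2 cells than Treg cells were 6.72%. Tnfrsf13b, which encodes TACI, had 6 of its 7 regions higher in Treg cells than other effector cells, and Tnfrsf14 (HVEM) had 4 of 6. Tnfrsf11a, the RANK gene, had 6 of 10 higher in naive and 6 in Th2 cells than other effector cells, Tnfrsf1a (TNFR1) 3 of 5 in each, and Tnfrsf21 (DR6) 4 of 6 higher in Th2 cells than Treg cells.

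All 17 ligand genes had a region, with a median of 4 per gene. Of these, 15 had one listed for Th2 over other effector cells (88.2%, all genes 52.5%), and 17 of the 21 other receptors (81.0%) and 7 of the 8 genes (87.5%) did too. For naive over other effector cells it was 9 ligand genes (52.9%, all genes 29.8%), for Treg over other effector also 9 (all genes 48.7%), and for Treg over naive cells 5 (29.4%, all genes 9.64%). Regions higher in Th2 cells than naive cells were at 10 of 17 (58.8%, all genes 13.6%). Tnfsf11, which encodes RANKL, had 5 of its 10 regions there, Tnfsf10 (TRAIL) 4 of 5, and Tnfsf18, the ligand of GITR, 1 of 5 with 3 higher in Th2 cells than Treg cells. Fasl had 8 of 11 and Cd40lg 6 of 7 higher in naive cells than other effector cells. Over all merged regions the shares were 9.67% for Th2 over naive, 6.72% for Th2 over Treg and 33.7% for naive over other effector cells. For Treg over Th2 cells 1 ligand gene of 17 was listed, Fasl (5.88%, all genes 5.66%).

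Adapters and NF-kB genes were listed mainly for Th2 and Treg over other effector cells: 21 of 22 genes had a region higher in Th2 cells (95.5%, all genes 52.5%) and 18 one higher in Treg cells (81.8%, all genes 48.7%). Nfkb1, an NF-kB subunit, had 28 regions, 18 and 16 of them in these directions, and Tnfaip3, which encodes the NF-kB inhibitor A20, had 25, with 14 and 15. Nfkbia, the gene of another inhibitor, had 12 with 8 in each, Traf1 11 with 7 and 8, and Map3k14, the kinase NIK of the non-canonical pathway, 11 with 7 and 2. Over all merged regions, 53.2% and 46.7% were listed in these directions, so the counts per gene are a description only. For Treg over Th2 cells 1 of the 22 was listed (4.55%), near the 5.66% of all genes. For Th2 over Treg cells it was 6 (27.3%, all genes 10.3%).

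Likeness to other genes was measured over 3250 genes with at least 5 regions, as the sum of absolute differences between the shares of regions listed in each of the 9 directions, where 0 is identical. For Tnfrsf8 the nearest was Ikzf2, which encodes the Treg transcription factor Helios, at 0.202 against a median of 1.94, with 23 of 27 regions higher in Treg cells than other effector cells. Ikzf2 is also on the Treg marker list used below. Icos, a costimulatory receptor gene, and Ube2e3 followed at 0.364 each. For Tnfrsf9 they were Timd2 (0.289), Gpld1 (0.333) and Ky (0.417), and for Tnfrsf1b Tmpo, Apobec3 and Rpap2 (0.364 each). Cd27 and Tnfsf8 had no near match: the closest were Actn4 at 0.600, Osbpl8 at 0.667 and Rapgef5 at 0.691, and Camkk2 and Marco at 0.571 and Slc38a6 at 0.607.

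The labels were checked against marker lists. Regions of 14 naive genes were higher in naive cells than Th2 cells at 116 against 7, and than in Treg cells at 57 against 6. Because these genes served to orient the folds, they are no separate evidence on direction. Of 139 regions of 10 Treg genes, 25 were higher in Treg cells than Th2 cells, against 1 the other way. Of 83 regions of 12 Th2 genes, 7 were higher in Th2 cells than Treg cells, against 1 the other way. Over all merged regions these directions held 3.34% and 6.72%, so the 7 of 83 were near the share of all regions. The Th2 genes also had 40 regions higher in Th2 and 24 in Treg cells than naive cells. Over other effector cells the numbers were 62 and 47. Of all merged regions, 33.7% were higher in naive, 46.7% in Treg and 53.2% in Th2 cells than other effector cells. Of 30 regions of 7 myeloid genes, 13 were higher in naive, 5 in Treg and 21 in Th2 cells than other effector cells. Of 23 regions of 6 B cell genes, 20 were higher in naive cells than other effector cells, 3 in Treg and 4 in Th2 cells. Of 24 regions of 7 CD8 T and natural killer cell genes the numbers were 15, 9 and 5. Their part in the results above was not tested.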

How the data were processed

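ATAC-seq of 4 sorted T helper populations was analysed from 6 tables of differential regions, 1 per pair of populations. The deposited values are log2 folds that the authors obtained with DiffBind, per the submitters' processing notes, without a version. For aligner, peak caller, normalization and threshold, the sources used here give nothing. The log2 scale was inferred from the tool and the signed values.

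Per the labels' protocols, tagmentation ran for 30 min with 16 PCR cycles, and reads were paired and 125 bases long. The labels name build mm9, whereas all 11 unplaced sequences in the tables carry GRCm38-type names. A start of 47.9% of 17492 protein-coding genes of GRCm38.p6 lay in a listed region, against 1.84% to 2.56% after shifts of 100 or 1000 kb. Coordinates are therefore given as GRCm38, 1-based.

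Rows overlapping by at least 1 bp were merged with Python 3.11.15 and pandas 2.3.3; bedtools 2.31.1 gave the same number of merged regions. Regions were assigned to 21900 protein-coding genes of the RefSeq table, which gives no exons, so only inside or outside of a gene is given. Each fold was read as first-named minus second-named population. Reading the tables this way gave the recurring differences between lower populations at 41.3% to 87.3% of regions listed over 2 others, against 0.455% to 1.15% with 1 table reversed. Starts and sequences came from the RefSeq promoter table, in which all 8 genes matched and 1672 of 1672 overlapping windows of opposite strands were reverse complements. The bases after a start are not printed.

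No test was made, since the tables hold no replicates. Merging and assignment were tested on simulated intervals. Named are all 8 genes, the 5 genes with most regions in each of 3 related lists, and the 3 genes most alike to each member with at least 5 regions. Members and lists were chosen with earlier results of these data known. The alternatives were other assignment distances, a stricter fold, all gene types and other overlaps.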

Additional observations from a re-analysis of the deposited data

How the results depend on the processing

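No paired analysis was possible because the tables hold no replicate values, and no replicate could be left out. The count of regions higher in Treg cells than other effector cells stayed within 1.5 times its value of 45 under the other settings, and fell to 26 with only regions inside a gene. That setting also left 35 of the 60 merged regions, 6 higher in Treg cells than Th2, 4 higher in naive cells than other effector, 1 higher in naive cells than Th2, 1 higher in naive cells than Treg, 3 higher in Th2 cells than naive and 3 higher in Th2 cells than Treg cells. Regions assigned only within 10 kb gave 4 higher in Th2 cells than naive, 1 higher in naive cells than Treg and 3 higher in Th2 cells than Treg cells. Any overlap with a gene or the 10 kb around it gave 4 higher in Th2 cells than naive and 3 higher in Th2 cells than Treg cells. With folds at or above the median of their table there were 39 merged regions, 4 higher in naive cells than other effector, 0 higher in naive cells than Treg and 3 higher in Th2 cells than Treg cells. With all gene types deciding the assignment there were 6 higher in naive cells than other effector, 3 higher in Th2 cells than naive, 1 higher in naive cells than Treg and 3 higher in Th2 cells than Treg cells. Merging by reciprocal overlap of 50% or by identical ends gave 61 and 65 regions. Counts for Treg over naive and for Th2 over other effector cells stayed within 1.5 times their values of 12 and 13 under each of these settings. The Th2 and Treg gene lists gave the same sign of the folds as the naive list. For naive versus other effector cells, a table with 1 direction, that alternative could not give a value.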
